A study of Mus musculus with 6 samples.

Results

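The 10 genes described here are transcriptional targets of p53, chosen by symbol: Cdkn1a, Mdm2, Bax, Bbc3, Trp53inp1, Ccng1, Phlda3, Zmat3, Eda2r and Sesn2. Each symbol matched 1 of the 33696 features in the count matrices. The rule names them without a measured value, but it was written with earlier results of these data known. They were followed across immune cell populations and libraries of mouse mammary tumours, to ask whether they stood higher after an alkylating drug and whether any difference was still present at the later time.

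The transcription factor p53 is held low by the ubiquitin ligase Mdm2 and accumulates when DNA is damaged, for example by the cross-links that alkylating agents make. It then activates genes that halt the cell cycle, genes that permeabilise mitochondria and start apoptosis, and genes such as Mdm2 itself that feed back on p53. Lymphocytes are among the cells known to be sensitive to such drugs, and some p53 targets, Cdkn1a above all, are also transcribed in undamaged myeloid cells by other factors.

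The libraries hold live CD45+ cells sorted from mammary tumours, CD45 being a surface protein of blood-derived cells, and were made with 10x 3′ chemistry, which counts transcript molecules by unique molecular identifiers (UMIs). The labels name the treatments VC, MRX, CTX, Combined, ctxd18t and combod18t without spelling them out, and the series title names inhibition of the receptor tyrosine kinase MERTK and cyclophosphamide, an alkylating prodrug. The last pair of labels is read as day 18. The other labels carry no day, and calling their libraries early is a reading too. The protocol, the same for all samples, has day 7 mice receive treatment 3 hours before harvest and gives no dosing time for day 18. No genotype, strain, sex, age or tumour model is given in the labels, nor the number of mice behind a library. VC was not analysed here, so MRX, which has a treatment label of its own, stands in for the control without being an untreated library. The protocol lists Combined, CTX, MRX and VC as barcode sets of 1 multiplexed run and lists none for ctxd18t and combod18t, so day and run cannot be told apart. With 1 library per label no difference could be checked in replicates, and no p-value is given. All intervals are 95% intervals that cover counting error only.

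The 5 libraries held between 39820290 (MRX) and 100733879 (CTX) UMIs, and 25657 cells were kept, from 3843 in ctxd18t to 8490 in CTX. Ptprc, the gene of CD45, was detected in 95.5% to 98.3% of the kept cells of each library. CTX and combod18t shared 34 cell barcodes and Combined and ctxd18t shared 21, and no other pair shared any. Lymphoid cells are described as T-like and NK-like classes. The monocyte and macrophage cells are described by cluster number, because 1 of their clusters led with a marker of another class and none of its own. Cluster 4 was led by C1qa, Ccl8 and C1qc, and cluster 5 by Plcb1, Vcan and F13a1. The T-like class passed that check, but its make-up differed: cluster 3, led by St8sia6 and Lef1, held 1309 of the 2595 T-like cells of combod18t, while cluster 6, led by Gzmk, Ccl5 and Cd8a, held 748 of 1846 in MRX. Trp53, the gene of p53 itself, differed by less than 1.5-fold in T-like cells, at 150.5 CPM in MRX, 172 in CTX and 191 in Combined, with 154 in ctxd18t and 167 in combod18t.

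RefSeq promoters on GRCm38.p6, from 250 bases before to 50 after the annotated start, were at hand for 8 of the 10 genes, with 11 starts in all. They were searched on both strands for the p53 full site, a pair of decamers in tandem with no spacer and at most 3 mismatches in 20 bases. That site lay in 1.379% of 32851 promoters (453). Among the members it was found at 1 start each of Cdkn1a, Ccng1 and Bbc3, printed here because these are the members' matches in this window. Each is written 5′ to 3′ in the direction of the gene, with the match in capitals. It begins 51 bases upstream of the Cdkn1a start with 1 mismatch (chr17:29090729-29091028, plus strand), 195 bases upstream of the Ccng1 start with 1 mismatch (chr11:40755237-40755536, minus strand) and 97 bases upstream of the Bbc3 start with 3 mismatches (chr7:16309333-16309632, plus strand). No match in this window says nothing of sites elsewhere in a gene.
Cdkn1a: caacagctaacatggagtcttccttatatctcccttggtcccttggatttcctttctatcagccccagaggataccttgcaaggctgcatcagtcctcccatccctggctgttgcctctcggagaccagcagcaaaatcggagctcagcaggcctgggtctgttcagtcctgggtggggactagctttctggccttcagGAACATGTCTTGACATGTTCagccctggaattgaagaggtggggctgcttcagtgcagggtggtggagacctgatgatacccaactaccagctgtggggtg
Ccng1: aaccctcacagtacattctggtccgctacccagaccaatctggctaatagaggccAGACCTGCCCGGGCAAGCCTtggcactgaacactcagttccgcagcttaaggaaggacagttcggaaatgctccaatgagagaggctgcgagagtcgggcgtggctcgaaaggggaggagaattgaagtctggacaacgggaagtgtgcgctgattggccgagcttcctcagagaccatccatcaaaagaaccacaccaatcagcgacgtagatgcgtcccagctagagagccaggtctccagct
Bbc3: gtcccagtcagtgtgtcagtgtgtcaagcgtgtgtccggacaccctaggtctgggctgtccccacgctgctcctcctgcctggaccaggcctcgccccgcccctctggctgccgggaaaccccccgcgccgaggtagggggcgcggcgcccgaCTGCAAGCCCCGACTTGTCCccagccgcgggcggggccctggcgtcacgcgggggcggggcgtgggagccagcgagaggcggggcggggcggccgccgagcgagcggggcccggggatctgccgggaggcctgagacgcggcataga

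Cdkn1a encodes p21, an inhibitor of cyclin-dependent kinases, and is the gene whose promoter holds the first of these matches. In T-like cells its level, as its UMIs per 1000000 UMIs summed over the class (CPM), was 45.0 in MRX (460 UMIs), 197 in CTX (2578) and 223 in Combined (1623), with 104 in ctxd18t (1205) and 62.0 in combod18t (1336). The counting intervals of the 5 libraries did not overlap: CTX and Combined were highest, ctxd18t lay between, and combod18t was nearest to MRX in the pooled class. The log2 ratio of CPM + 1 against MRX was 2.11 for CTX (1.99 to 2.28), 2.29 for Combined (2.16 to 2.46), 1.19 for ctxd18t (1.05 to 1.36) and 0.45 for combod18t (0.31 to 0.62). Here and below the interval is that of the ratio without the added 1. A gene is said to have risen or fallen when its ratio was at least 1.5-fold in either direction with an interval of the log2 ratio that excluded 0, among genes with at least 100 UMIs over the 5 libraries. By that rule Cdkn1a rose against MRX in CTX, Combined and ctxd18t, missed it in combod18t, and fell from ctxd18t to combod18t (-0.73, -0.86 to -0.63). Cluster 3, which has little Cdkn1a, held 1309 of the 2595 T-like cells of combod18t, so its pooled values are to be read beside those of single clusters.

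**Figure D1:**
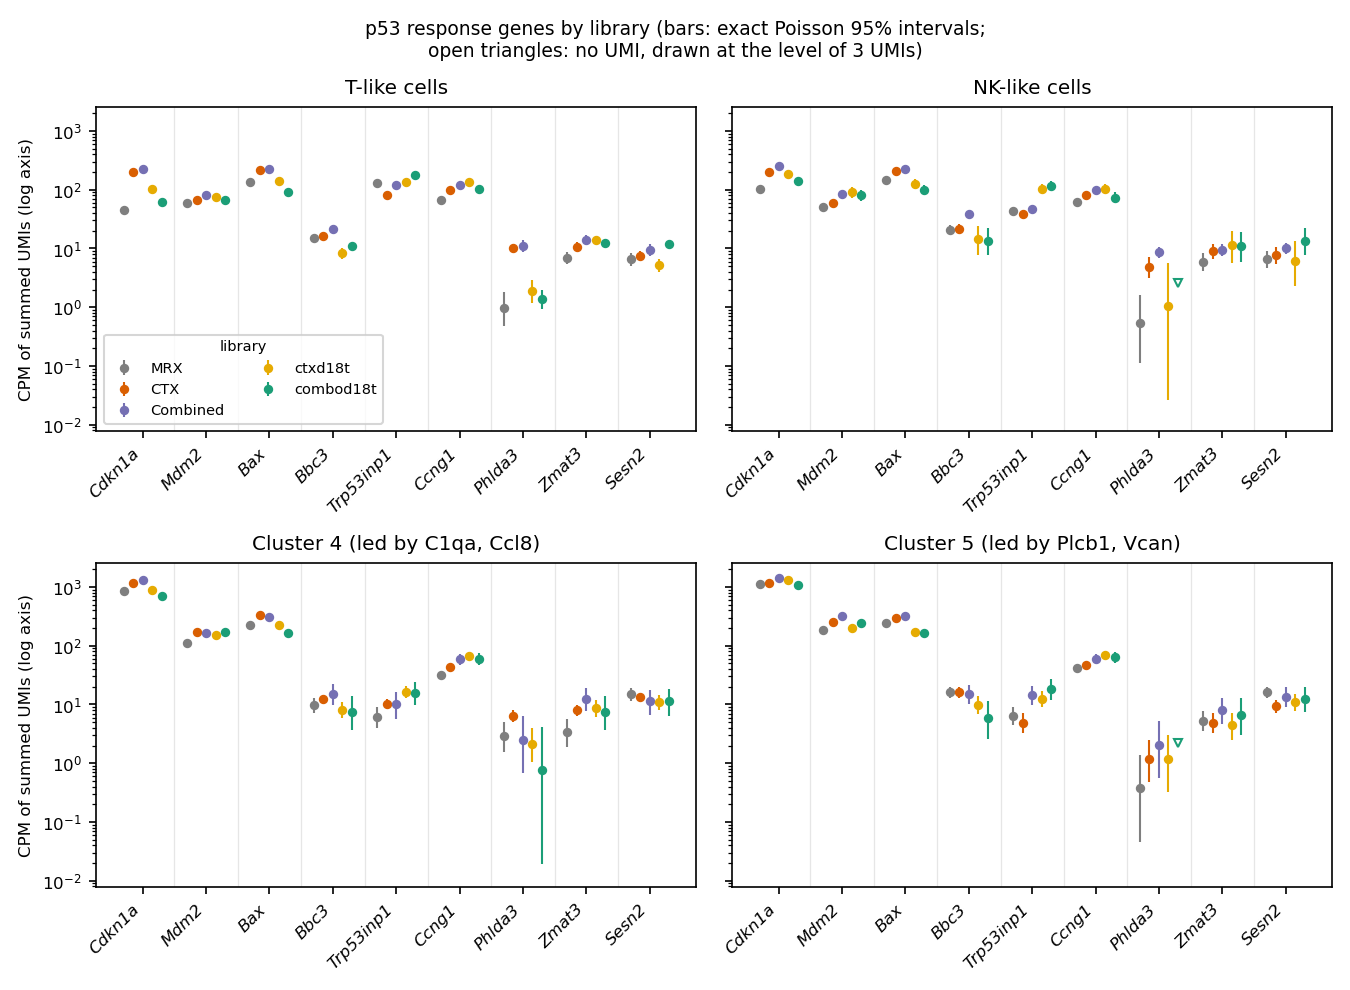
CPM of summed UMIs on a log axis for 9 of the 10 genes in T-like cells, NK-like cells, cluster 4 and cluster 5, with 1 point per library and exact Poisson 95% intervals; Eda2r is left out because it had at most 2 UMIs in any library of these populations. Cdkn1a in T-like cells ranges from 45.0 in MRX to 223 in Combined, while in clusters 4 and 5 it is at least 701 in every library.

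CTX and Combined were the highest libraries for Cdkn1a in each of the 6 T-like clusters described here, while the order within that pair and among the others varied. In cluster 6 it stood at 39.3 CPM in MRX, 158 in CTX and 197 in Combined, with 85.4 in ctxd18t and 64.8 in combod18t. Cluster 10, led by Foxp3, the factor of regulatory T cells, had 64.8, 242, 287, 159 and 105 CPM in the same order. Cluster 11, led by Ccl1 and Penk, had 41.7 CPM in MRX from only 16 UMIs, then 300.2, 289, 153 and 140 CPM. In cluster 12, led by Tnfsf8 and Cd40lg, the values were 73.6, 332, 251, 106 and 111 CPM. Clusters 3 and 7, which share Lef1 among their leading genes, had much less: 11.8 to 41.5 CPM in cluster 3 and 9.23 to 30.4 in cluster 7, with CTX highest in each. CTX was also above Combined in clusters 11 and 12, and in cluster 3 combod18t (11.8) was below MRX (12.7). Within single clusters Cdkn1a rose in combod18t against MRX in cluster 6 (0.71, 0.35 to 1.09) and cluster 10 (0.69, 0.34 to 1.07). It also rose in cluster 11 (1.73, 1.04 to 2.57) and cluster 12 (0.59, 0.23 to 0.97), but not in clusters 3 and 7. Each of these ratios lay below the 95th percentile of all tested genes, which was 0.89, 1.03, 1.77 and 0.95 in the same order. The medians over all genes there were 0.19, 0.09, 0.26 and 0.13. An equal mix of T-like clusters gave each cluster the mean of its cell shares in both libraries of a pair. With that mix the log2 ratio of ctxd18t against MRX stayed at 1.19. That of combod18t against MRX moved from 0.45 to 0.67, past 1.5-fold, and that of combod18t against ctxd18t moved from -0.73 to -0.23.

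**Figure D2:**
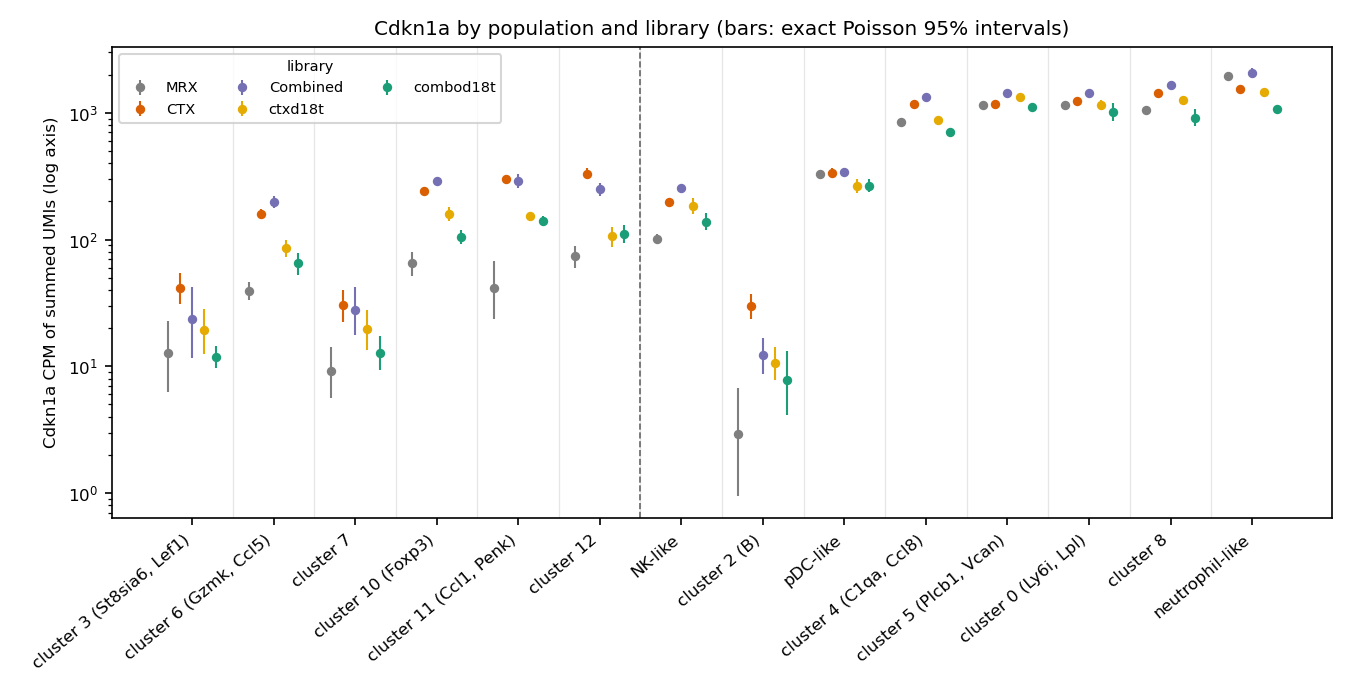
Cdkn1a CPM on a log axis in 14 populations, with 1 point per library and exact Poisson 95% intervals; populations left of the dashed line are T-like clusters. MRX is the lowest or next to lowest library in each T-like cluster shown, and all monocyte and macrophage clusters (4, 5, 0 and 8) and neutrophil-like cells lie at 701 CPM or above in every library.

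Shares of cells gave the same order, but MRX and combod18t were not separated after thinning (3.03% to 4.85% and 3.39% to 4.96%). After each cell was thinned to 1000 UMIs, Cdkn1a was detected in 3.87% of T-like cells of MRX, 12.3% of CTX, 14.8% of Combined, 7.40% of ctxd18t and 4.12% of combod18t, leaving out 3 to 23 shallower cells per library. Unthinned, the shares were 13.6%, 39.9%, 41.0%, 29.4% and 17.2%, at median depths from 4710.5 to 7688 UMIs. In the B cells of cluster 2, led by Ighd and Bank1 and with little Cdkn1a, the thinned shares were 0 of 300 cells in MRX (an upper 95% bound of 1.22% on cells with a UMI at the thinned depth), 2.84% in CTX and 1.43% in Combined, with 0.938% in ctxd18t and 0 of 191 in combod18t (an upper bound of 1.91%). Unthinned they were 1.66%, 9.91%, 3.96%, 6.15% and 3.61%, at median depths from 3992 to 7445 UMIs. Macrophage RNA carried into other droplets was followed by 18 monocyte and macrophage markers. Their summed level in T-like cells was 652 CPM in MRX, 630 in CTX and 626 in Combined. It was 506 in ctxd18t and 318 in combod18t, and no marker was at 0. Single genes varied: Lyz2 was 66.7 CPM in MRX, 77.5 in CTX and 77.6 in Combined, and C1qa 42.3, 47.0 and 41.1. For every 100 marker UMIs, T-like cells held 6.90 to 35.7 Cdkn1a UMIs and the monocyte and macrophage clusters (0, 4, 5 and 8) together 4.03 to 7.45, each library's T-like value being the higher. That was not so in every T-like cluster: cluster 7, at 2.06 to 4.71, lay below the monocyte and macrophage cells of its own library throughout, as cluster 3 (2.40) and cluster 6 (4.29) did in MRX, against 4.56. In the other libraries cluster 6 held 8.40 to 19.8. The part of carried-over RNA in these low levels was not tested.

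Ccng1, the other gene whose match has 1 mismatch, encodes cyclin G1, which guides a phosphatase to Mdm2. In T-like cells it stood at 68.3 CPM in MRX, 99.8 in CTX and 121 in Combined, with 133 in ctxd18t and 104 in combod18t. All 4 other libraries lay above MRX, and here ctxd18t was the highest. Its log2 ratio against MRX was 0.54 in CTX (0.41 to 0.68), which missed 1.5-fold, 0.82 in Combined (0.68 to 0.97), then 0.96 for ctxd18t (0.84 to 1.10) and 0.60 for combod18t (0.49 to 0.74). The last of these was 0.49 when libraries were scaled by the median of gene ratios, and then missed the rule.

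Mdm2, the ubiquitin ligase that marks p53 for degradation, passed the rule in no T-like comparison. Its level ran from 60.7 CPM in MRX to 80.5 in Combined, and the largest log2 ratio was 0.40 (0.24 to 0.57), for Combined against MRX.

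In T-like cells Bax and Bbc3, genes of mitochondrial apoptosis, passed the rule in different comparisons. Bax, whose protein forms pores in the outer mitochondrial membrane, stood at 134 CPM in MRX, 219 in CTX and 225 in Combined, with 139 in ctxd18t and 90.4 in combod18t in T-like cells. CTX and Combined lay above the rest, ctxd18t overlapped MRX, and combod18t was lowest. Bax rose in CTX (0.71, 0.62 to 0.81) and in Combined (0.75, 0.65 to 0.86) against MRX, with 0.05 for ctxd18t (-0.05 to 0.16), and fell from ctxd18t to combod18t (-0.61, -0.71 to -0.52; -0.56 under the median of ratios, which misses the rule). Bbc3 encodes PUMA, a protein that binds and neutralises the BCL2 family's survival members. It stood at 15.1 CPM in MRX, 16.4 in CTX and 21.7 in Combined, with 8.27 in ctxd18t and 10.8 in combod18t, and its only T-like change was a fall in ctxd18t against MRX (-0.79, -1.25 to -0.49).

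Trp53inp1, a stress protein of apoptosis and autophagy, differed from Bax in CTX and combod18t. Its T-like level was 131 CPM in MRX, 81.5 in CTX and 121 in Combined, with 138 in ctxd18t and 176 in combod18t, so CTX was lowest and combod18t highest. It fell in CTX against MRX (-0.68, -0.80 to -0.56). Eda2r, a receptor of the tumour necrosis factor family, had 1 UMI in T-like cells of combod18t and none in those of the other libraries, where 3 UMIs would be 0.229 to 0.413 CPM. It was concentrated elsewhere: 54 of the 59 Eda2r UMIs of ctxd18t lay in 4 cells of the Col3a1-led cluster 19, a shallow cluster of 73 ctxd18t cells.

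Phlda3, which competes with the kinase AKT for membrane lipids, was scarce and rose by the largest ratios. T-like cells had 0.979 CPM in MRX (10 UMIs), 10.0 in CTX (131) and 11.1 in Combined (81), with 1.89 in ctxd18t (22) and 1.39 in combod18t (30). CTX and Combined stood apart from the other libraries, whose intervals overlapped. Its log2 ratio against MRX was 2.48 for CTX (2.43 to 4.45) and 2.62 for Combined (2.56 to 4.62), and 0.55 for ctxd18t (-0.18 to 2.20). These UMIs came mostly from T-like cells with a UMI of Mki67 or Top2a, genes of dividing cells, here called proliferating. Such cells held 120 of the 131 in CTX and 79 of the 81 in Combined. Their Phlda3 level was 13.8 CPM in CTX and 17.8 in Combined, against 2.49 and 0.706 in the rest. Without those cells the log2 ratio was 1.05 for CTX and 0.01 for Combined, from 4 UMIs in MRX, 11 in CTX and 2 in Combined.

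Zmat3, an RNA-binding zinc finger protein that acts on splicing, and Sesn2, a sestrin that restrains mTORC1, were both low. Zmat3 stood at 6.95 CPM in MRX, 10.8 in CTX and 14.2 in Combined, with 14.0 in ctxd18t and 12.2 in combod18t. It rose against MRX in Combined (0.93, 0.58 to 1.49), ctxd18t (0.92, 0.60 to 1.44) and combod18t (0.73, 0.43 to 1.21), and CTX was just short at 0.57 (0.21 to 1.07). Sesn2, which is also a target of the stress factor ATF4, rose in combod18t, to 11.7 CPM from 6.56 in MRX (0.75, 0.44 to 1.25) and 5.17 in ctxd18t (1.04, 0.77 to 1.61).

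Of the 9 members with enough UMIs in T-like cells, 4 passed the rule in CTX against MRX (3 rose and 1 fell), where 14.4% of 11363 genes did. In Combined against MRX 5 rose, beside 14.4% called among all genes. In ctxd18t against MRX 4 passed (3 rose and 1 fell) beside 17.3%. In combod18t against MRX 3 rose beside 31.3%, a share near that of all genes. The members' median log2 ratio was 0.54, 0.75, 0.32 and 0.43 in these comparisons, against -0.02, 0.09, 0.17 and 0.14 over all genes. None passed in Combined against CTX (5.38% of all genes), and 3 did in combod18t against ctxd18t (1 rose and 2 fell; 18.5%). The 4 comparisons with MRX share that library, so their members are not separate evidence. Under the median of ratios the median of all T-like genes moved by -0.16 for ctxd18t and -0.11 for combod18t against MRX. The share of called genes that were higher then went from 71.4% to 57.3% in Combined against MRX, from 64.5% to 43.7% in Combined against CTX, from 80.0% to 57.7% in ctxd18t against MRX and from 66.0% to 50.7% in combod18t against MRX. Of the members called, that scaling added Zmat3 for CTX, and replaced Ccng1 by a fall of Bax for combod18t against MRX, and lost the fall of Bax from ctxd18t to combod18t.

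**Figure D3:**
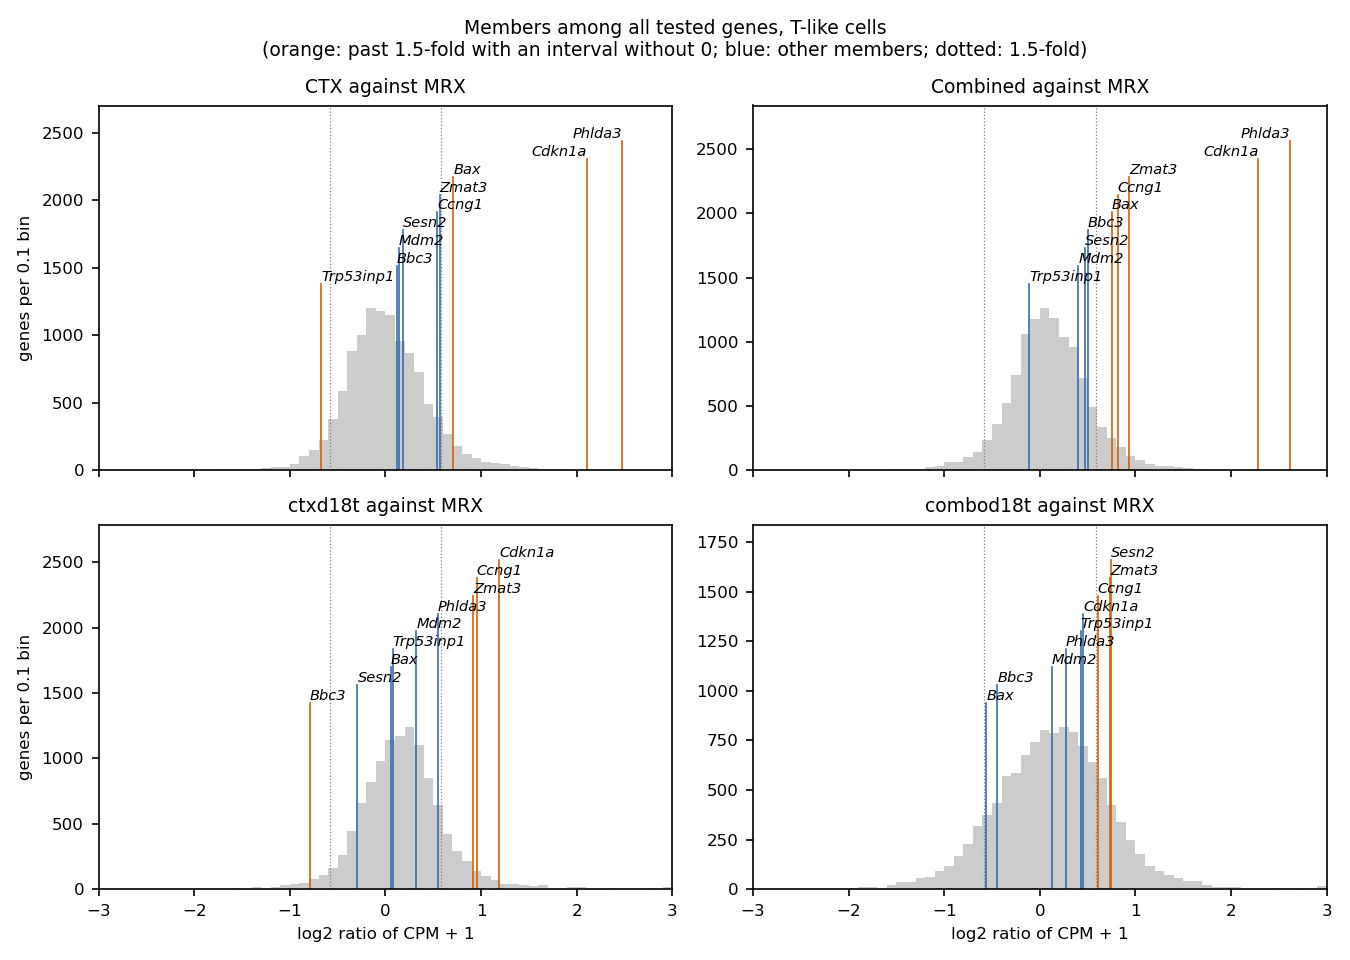
Log2 ratios of CPM + 1 against MRX in T-like cells: grey bars count all tested genes in bins of 0.1, with ratios beyond 3 in size placed in the end bins, and vertical lines mark 9 members, in orange where they passed the rule. Cdkn1a (2.11) and Phlda3 (2.48) lie far to the right of the other members in CTX, and of these only Cdkn1a (1.19) is past the dotted 1.5-fold line in ctxd18t.

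Markers of dividing cells differed between the T-like libraries as well. A Mki67 or Top2a UMI was seen in 32.7% of T-like cells of MRX, 45.7% of CTX, 43.4% of Combined, 43.6% of ctxd18t and 24.3% of combod18t, at unequal depths. Thinned to 1000 UMIs, the shares were 14.6%, 25.0%, 21.9%, 17.3% and 7.19%. Mki67 itself was 294 CPM in MRX and 319 in ctxd18t, and Top2a 341 and 322, so these libraries were nearer each other than the unthinned shares. Cdkn1a was higher in such cells than in the rest, in every library: 63.3 against 31.1 CPM in MRX, 244 against 105 in CTX, 288 against 122 in Combined, 130 against 70.5 in ctxd18t and 96.1 against 43.5 in combod18t. Among the cells with neither UMI the log2 ratio against MRX was 1.72 for CTX, 1.94 for Combined and 1.16 for ctxd18t. Bax among them was 119 CPM in MRX, 155 in CTX and 152 in Combined, and its log2 ratios of 0.38 and 0.35 missed the rule. Of 16 cell cycle genes that p21 is known to repress through the DREAM complex, 15 rose in CTX and 12 in Combined against MRX in T-like cells, with none lower, while Cdkn1a rose. All 16 fell in combod18t against MRX. In ctxd18t 2 rose (Plk1 and Ccnb1) and 1 fell (E2f1). The part of proliferation in the Cdkn1a, Ccng1 and Zmat3 levels beyond these values was not tested.

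**Figure D4:**
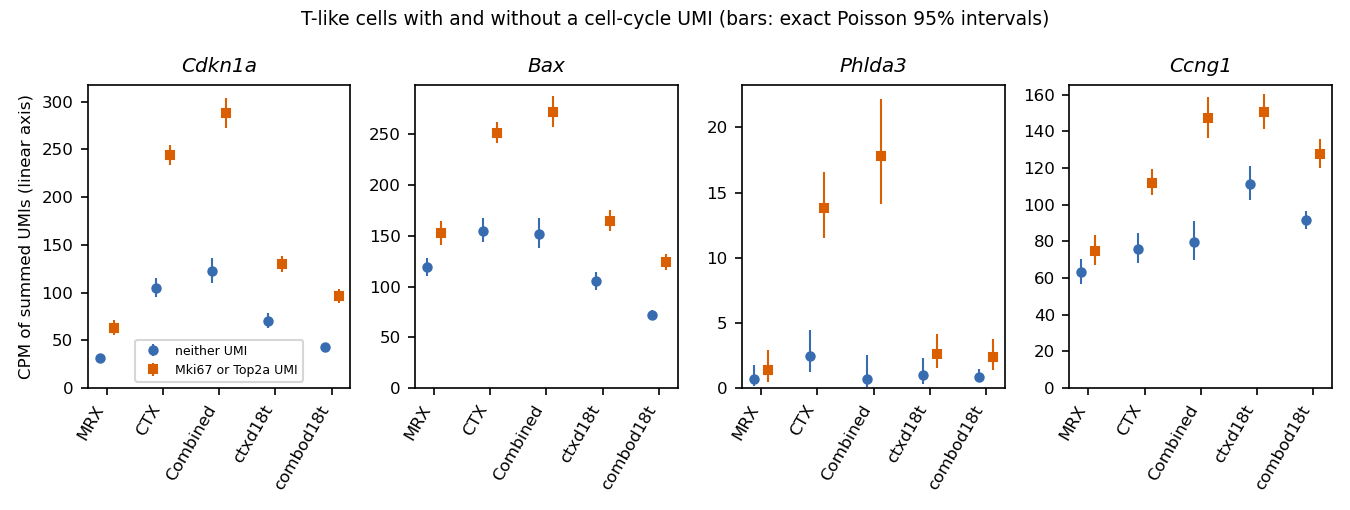
CPM on linear axes of Cdkn1a, Bax, Phlda3 and Ccng1 in T-like cells with a Mki67 or Top2a UMI (orange squares) and with neither (blue circles), by library, with exact Poisson 95% intervals. Cdkn1a in cells with neither UMI is 31.1 in MRX, 105 in CTX, 122 in Combined and 70.5 in ctxd18t, whereas Phlda3 exceeds 10 only in the orange squares of CTX and Combined.

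Other p53 targets, from a list of 32, were more often higher than lower in T-like cells, as all genes were. Of 28 with enough UMIs, 6 rose and none fell in CTX against MRX, 8 rose and none fell in Combined, 7 rose and 1 fell in ctxd18t, and 11 rose and none fell in combod18t. Among all genes 14.4%, 14.4%, 17.3% and 31.3% passed in these comparisons, and 59.1%, 71.4%, 80.0% and 66.0% of those that passed were higher. The medians of the listed genes were 0.23, 0.36, 0.35 and 0.41, beside the medians over all genes given above. Plk2, a kinase of the stress response, went from 5.28 CPM in MRX to 21.1 in CTX and 17.3 in Combined, 36.8 in ctxd18t and 18.8 in combod18t. Cd80, a costimulatory ligand, went from 16.2 CPM in MRX to 54.8, 58.1, 56.0 and 40.6 in the same order. Gtse1, which moves with the G2 phase, had 1.86 CPM in MRX, 7.34 in CTX and 8.67 in Combined, with 2.50 in ctxd18t and 1.02 in combod18t. In combod18t the genes with the largest ratios after Plk2 and Cd80 were Sesn1 (0.95) and Tob1 (0.84), an antiproliferative gene of resting T cells. In combod18t against ctxd18t 4 of the 28 rose and 5 fell, and none passed in Combined against CTX.

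The other lists are read against the 14.4% of all T-like genes that passed in CTX, the 14.4% in Combined, the 17.3% in ctxd18t and the 31.3% in combod18t, each against MRX. Of 12 genes, Trp53 and its regulators, only Cdkn2a, which encodes an inhibitor of Mdm2 beside one of cyclin-dependent kinases, passed in T-like cells of CTX (2.31) and Combined (1.53) against MRX. In ctxd18t Cdkn2a and Atr rose, and in combod18t 4 rose and 2 fell. Of 8 integrated stress response genes, 3 rose and 1 fell in T-like cells of CTX, and likewise in Combined; the falls were of Ddit3. None passed in ctxd18t, and 3 fell in combod18t. Of 14 genes that tissue dissociation is known to induce, 2 rose in CTX, 2 in Combined and 4 in ctxd18t against MRX, where 1 fell, and 4 fell in combod18t. In CTX, Combined and combod18t that is near the share of all genes. Hspa1a and Hspa1b were among the 4 that rose in ctxd18t (1.39 and 1.32) and among those that fell in combod18t (-1.28 and -1.34). The part of dissociation in the members' levels was not tested.

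NK-like cells, all of cluster 1, repeated the early rise of Cdkn1a at smaller ratios. Cdkn1a stood at 102 CPM in MRX, 199.5 in CTX and 255 in Combined, with 185 in ctxd18t and 139 in combod18t. The log2 ratio against MRX was 0.97 for CTX (0.82 to 1.12), 1.32 for Combined (1.19 to 1.46), 0.86 for ctxd18t (0.61 to 1.11) and 0.44 for combod18t (0.19 to 0.70). Among NK-like cells with no Mki67 or Top2a UMI, Cdkn1a was 92.0 CPM in MRX, 170 in CTX and 189 in Combined, with 207 in ctxd18t and 152 in combod18t. There ctxd18t was highest, and the ratios against MRX were 0.88, 1.03, 1.16 and 0.72. The combod18t ratio was -0.24 after thinning and 0.06 under the median of ratios. The summed macrophage markers in NK-like cells were lowest in MRX too, at 579 CPM, with 827 in CTX and 663 in Combined, then 1015 in ctxd18t (7 of 18 at 0) and 774 in combod18t (2 at 0). For every 100 marker UMIs there were 17.6 Cdkn1a UMIs in MRX, 24.1 in CTX and 38.4 in Combined, with 18.2 in ctxd18t and 17.9 in combod18t, so at day 18 this ratio was near that of MRX. The part of carried-over RNA in the NK-like levels was not tested. Day 18 rested on few NK-like cells, 110 in ctxd18t and 112 in combod18t, against 615 to 941 in the other libraries. Phlda3 had 3 UMIs in MRX, 25 in CTX and 75 in Combined, with 1 in ctxd18t and none in combod18t, where 3 UMIs would be 2.55 CPM. It was the gene that rose from CTX to Combined (0.73, 0.17 to 1.55), together with Bbc3 (0.81, 0.52 to 1.16). Without proliferating cells the Phlda3 ratio turned to -0.61, from 10 UMIs in CTX and 9 in Combined. Bbc3, whose promoter match has 3 mismatches, had 21.01 CPM in MRX, 21.7 in CTX and 38.7 in Combined, with 14.4 in ctxd18t and 13.6 in combod18t, so Combined alone stood out.

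In NK-like cells 2 of 9 members rose in CTX against MRX (7.25% of 9229 genes passed), and 7 rose in Combined against MRX (9.3%): Cdkn1a, Mdm2, Bax, Bbc3, Ccng1, Phlda3 and Zmat3. Bbc3 and Phlda3 were the 2 that rose in Combined against CTX, beside 3.81%. At day 18, 4 rose in ctxd18t against MRX (26.8%) and 3 in combod18t against MRX (33.0%), and none passed in combod18t against ctxd18t (9.28%). The combod18t count is near the share of all genes. Trp53inp1 was among those that rose in both day 18 libraries, at 43.8 CPM in MRX, 38.0 in CTX and 46.5 in Combined, with 105 in ctxd18t and 117 in combod18t. Mdm2 rose in both as well, from 50.7 CPM to 90.5 and 80.0. These day 18 ratios leaned on scaling: the median of ratios moved the median of all NK-like genes by -0.32 for ctxd18t and -0.38 for combod18t. With it Cdkn1a (0.54), Mdm2 (0.50) and Ccng1 (0.45) missed the rule in ctxd18t, Mdm2 (0.27) and Sesn2 (0.58) missed it in combod18t, and Trp53inp1 passed in both. Bbc3 in both libraries and Bax in combod18t, all below MRX, then passed as lower. The share of called genes that were higher went from 64.5% to 24.7% and from 72.4% to 29.0% in these comparisons, and from 63.9% to 48.7% in Combined against CTX. For Combined against MRX it left 5 of the 7, without Bax (0.57) and Zmat3 (0.55). Of 24 other p53 targets, 3 rose in CTX (1 fell), 4 in Combined, 8 in ctxd18t (1 fell) and 10 in combod18t against MRX, and Plk2 was among those that rose in all 4. Of 15 cell cycle genes 10 rose in CTX and 8 in Combined against MRX, with none lower, while in ctxd18t 1 rose and 6 fell and in combod18t 2 rose and 2 fell.

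In the C1qa-led cluster 4, Cdkn1a started from a high level, 843 CPM in MRX, and was 1171 in CTX and 1333 in Combined, with 880 in ctxd18t and 701 in combod18t. It rose in Combined against MRX (0.66, 0.58 to 0.74), with 0.47 in CTX (0.42 to 0.53), 0.06 for ctxd18t (-0.0019 to 0.13) and -0.27 for combod18t (-0.37 to -0.16). Bax followed a like course, with 226 CPM in MRX, 336 in CTX and 311 in Combined, with 223 in ctxd18t and 165 in combod18t, and its largest log2 ratio of 0.57 (CTX against MRX) missed the rule. Ccng1, by contrast, was above MRX at day 18 too. It stood at 31.8 CPM in MRX, 42.9 in CTX and 59.2 in Combined, with 67.6 in ctxd18t and 59.5 in combod18t. The intervals of Combined, ctxd18t and combod18t overlapped. The Ccng1 ratio against MRX passed in Combined (0.88, 0.51 to 1.29), ctxd18t (1.07, 0.80 to 1.39) and combod18t (0.88, 0.49 to 1.31).

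The low genes Zmat3 and Trp53inp1 were also lowest in MRX in cluster 4. Zmat3 had 3.404 CPM in MRX, 7.94 in CTX and 12.6 in Combined, with 8.61 in ctxd18t and 7.53 in combod18t, and Trp53inp1 had 6.13, 10.3, 10.1, 16.6 and 15.8 CPM. Zmat3 rose in CTX, Combined and ctxd18t, and Trp53inp1 in CTX, ctxd18t and combod18t. The combod18t value rested on 21 UMIs, and after thinning to 1000 UMIs none of 100 cells had one, against 3 of 508 in MRX. Phlda3 rose in CTX alone, to 6.37 CPM from 2.95 (0.90, 0.25 to 2.09). Of 9 members 3 rose in CTX against MRX (10.8% of 9451 genes), 3 in Combined against MRX (14.6%), 3 in ctxd18t against MRX (23.7%) and 2 in combod18t against MRX (30.7%). None passed in Combined against CTX (6.24%) or in combod18t against ctxd18t (9.86%). The day 18 counts are near the share of all genes. The median of ratios moved all cluster 4 genes by -0.21 for ctxd18t and -0.36 for combod18t; in the former Sesn2 then passed the rule as lower, and in the latter Ccng1 (0.53) missed it and Cdkn1a and Bax passed it as lower. The share of called genes that were higher went from 65.1% to 54.5% in Combined against MRX, from 84.6% to 54.2% in ctxd18t, from 80.2% to 36.0% in combod18t, and from 52.7% to 40.9% in combod18t against ctxd18t. A Mki67 or Top2a UMI was seen in 16.8% of cluster 4 cells of MRX, 20.8% of CTX, 28.4% of Combined, 36.2% of ctxd18t and 37.0% of combod18t. Thinned, these shares were 2.17%, 3.80%, 6.02%, 5.07% and 5.0%, from 5 to 35 cells.

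The Vcan-led cluster 5 had little change in Cdkn1a: 1149 CPM in MRX, 1179 in CTX and 1443 in Combined, with 1339 in ctxd18t and 1102 in combod18t, with ratios against MRX from -0.06 to 0.33. Mdm2 was at 183 CPM in MRX, 252 in CTX and 317 in Combined, with 203 in ctxd18t and 244 in combod18t, and it rose in Combined (0.78, 0.64 to 0.93). Trp53inp1 rose in Combined, ctxd18t and combod18t, from 6.41 CPM in MRX to 14.6, 12.6 and 18.5, with 4.92 in CTX. In combod18t it rested on 25 UMIs, and none of 95 cells had one after thinning, against 4 of 605 in MRX. Bbc3 fell in both day 18 libraries, from 16.02 CPM to 9.98 and 5.93, the latter from 8 UMIs. Of 7 members with enough UMIs, 1 fell in CTX against MRX (Sesn2; 9.89% of 8425 genes passed), 2 rose in Combined against MRX (14.6%), 1 rose in Combined against CTX (5.39%), 3 passed in ctxd18t against MRX (20.9%), the same 3 in combod18t against MRX (27.4%) and none in combod18t against ctxd18t (7.69%). The median of ratios moved all cluster 5 genes by -0.18 and -0.28 at day 18, and Ccng1 (0.57 and 0.35) then missed the rule, while Bax in both day 18 libraries and Sesn2 in ctxd18t passed it as lower. With it the share of called genes that were higher went from 54.6% to 41.3%, from 52.4% to 37.8%, from 72.9% to 43.1%, from 74.5% to 35.0% and from 55.4% to 45.3% in the last 5 of these comparisons.

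Levels also differed between populations, and since 3′ UMIs count molecules they do not depend on transcript length. Cdkn1a was highest in neutrophil-like cells in 4 of the 5 libraries, at 1945 CPM in MRX, 1538 in CTX and 2078 in Combined, with 1459 in ctxd18t and 1080 in combod18t, where cluster 5 had 1102, and low in the B cells of cluster 2, at 2.91, 29.8, 12.2, 10.6 and 7.75 CPM. The B-cell values rest on 5 to 78 UMIs, and CTX was the highest of them, its interval apart from the others. For every 100 macrophage marker UMIs these B cells held 0.386 to 4.86 Cdkn1a UMIs, below the monocyte and macrophage cells of the same library in all 5 libraries. Their marker sum was 755 CPM in MRX and 614 in CTX. In the same libraries Lyz2 was 39.6 and 65.0 CPM in these cells, and C1qa 29.7 and 26.8. The part of carried-over RNA in the B-cell values was not tested. Bax in the same B cells was 129 CPM in MRX, 139 in CTX and 157 in Combined, with 102 in ctxd18t and 94.8 in combod18t, with ratios against MRX from -0.44 (-0.74 to -0.14) in combod18t to 0.29 (0.06 to 0.52) in Combined, none past 1.5-fold. Plasmacytoid dendritic (pDC-like) cells held Cdkn1a near one level in the early libraries, 329, 338 and 339 CPM in MRX, CTX and Combined, with 264 in ctxd18t and 266 in combod18t. Phlda3 in pDC-like cells had 14 UMIs in Combined (7.32 CPM) and none in the other 4 libraries. Neutrophil-like cells differed in Ccng1, which was highest in MRX at 117 CPM and 57.1 to 65.8 in the others.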

How the data were processed

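Gene expression was measured by 10x 3′ single-cell sequencing of sorted CD45+ cells. Per the labels' protocols, the authors processed the reads with Cell Ranger 9.0.1, and the submitters' processing notes name GRCm39 and Seurat 5.2.0. The deposited matrices hold raw UMI counts per gene and cell. The members and all lists were chosen with earlier results of these data known. All 10 members are named; of other lists, at most 4 called genes a comparison, plus genes singled out after their values were seen.

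Cells with at least 200 genes and at most 15% mitochondrial counts were kept, and the top 5% of Scrublet scores per library (expected rate 0.06) were removed, because the automatic threshold marked under 0.5% in each. Leiden clustering (scanpy 1.11.5, leidenalg 0.10.2, resolution 1, 2000 variable genes without the members and lists, 30 components, 15 neighbours) gave 22 clusters, named from marker lists. The class scoring was set after seeing the data and left clusters 13, 14 and 17 unnamed as mixed. Cluster 16 led with plasma cell genes, so B cells are given as cluster 2.

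Levels are CPM of summed counts with exact Poisson intervals; ratios are log2 of CPM + 1, which understates changes of low genes, with exact conditional binomial intervals. Shares have exact Clopper-Pearson intervals. The lists beside the members held 32 other p53 targets, 12 regulators, 16 cell cycle, 12 stress response and 14 dissociation genes. The ratio step was tested on simulated counts. Alternatives were scaling, pseudocount 10, at least 500 genes, no doublet removal, thinning to 1000 UMIs, the mean of per-cell CPM and resolution 2. Others were the same cluster mix in both libraries of a pair and cells without proliferation UMIs.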

Additional observations from a re-analysis of the deposited data

Results flagged for a closer look

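Several members differed in opposite directions between the libraries with both treatments and those with CTX alone at the earlier and the day 18 time, each with a counting interval that excluded 0. The difference between the times was not tested, since each value comes from 1 pair of libraries, and the earlier and day 18 pairs also differ in run. In T-like cells the log2 ratio of Cdkn1a was 0.18 for Combined against CTX and -0.73 for combod18t against ctxd18t. Mdm2 had 0.26 and -0.20 in the same comparisons, and Ccng1 had 0.27 and -0.35. The median over all T-like genes was 0.10 for Combined against CTX and -0.04 for combod18t against ctxd18t. These ratios and intervals hold under scaling by total counts, and the median of ratios moves those of Combined against CTX by -0.10. In NK-like cells the values were 0.35 and -0.41 for Cdkn1a and 0.29 and -0.51 for Ccng1. Cdkn1a had 0.19 and -0.33 in cluster 4, and 0.29 and -0.28 in cluster 5. Among these only the T-like fall of Cdkn1a at day 18 passed 1.5-fold, and with an equal mix of T-like clusters it was -0.23.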

How the results depend on the processing

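The UMIs of all 10 members were summed for T-like cells and for the whole monocyte and macrophage class (clusters 0, 4, 5 and 8), which did not pass the marker check. The main log2 ratios, for CTX, Combined and then ctxd18t and combod18t against MRX, Combined against CTX, and combod18t against ctxd18t, were 0.60, 0.82, 0.40, 0.19, 0.22 and -0.21 in T-like cells and 0.35, 0.59, 0.13, -0.12, 0.23 and -0.26 in the class. Over 12 such sums, 70 alternative values stayed within the counting interval, 35 moved outside it and 3 changed sign. Every value moved under at least 500 genes, pseudocount 10, no doublet removal and resolution 2 by less than its interval.

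Scaling by the median of ratios gave, in T-like cells, 0.73 for Combined, 0.24 for ctxd18t and 0.08 for combod18t against MRX, 0.12 for Combined against CTX and -0.15 for combod18t against ctxd18t; in the class it gave 0.51 for Combined, -0.06 (changed sign) for ctxd18t and -0.43 for combod18t against MRX, 0.16 for Combined against CTX and -0.32 for the day 18 pair. Thinning to 1000 UMIs gave T-like values of 0.32, 0.59, 0.29, -0.02 (changed sign), 0.27 and -0.31 in the order above, and in the class 0.32 for CTX, 0.10 for ctxd18t and -0.23 for combod18t against MRX and -0.33 for the day 18 pair. The mean of per-cell CPM gave T-like values of 0.40 for CTX, 0.67 for Combined and 0.10 for combod18t against MRX and -0.30 for the day 18 pair. An equal mix of clusters gave T-like values of 0.66 for Combined, 0.33 for ctxd18t and 0.30 for combod18t against MRX, 0.15 for Combined against CTX and 0.03 (changed sign) for the day 18 pair, and class values of 0.30 for CTX and 0.50 for Combined against MRX. Without proliferating cells T-like values were 0.21 for CTX, 0.40 for Combined, 0.28 for ctxd18t and 0.04 for combod18t against MRX, and class values were 0.56 for Combined and 0.20 for ctxd18t against MRX and 0.20 for Combined against CTX. The cause of these moves was not tested.

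A single-member result is 1 member in 1 population and 1 comparison, and 58 of these passed the rule. For them 356 alternative values stayed, 81 moved and 4 changed sign. These were Phlda3 in NK-like cells, Combined against CTX (-0.31 thinned, -0.61 without proliferating cells), and Trp53inp1 in combod18t against MRX, thinned, in cluster 4 (-2.79) and cluster 5 (-2.93), where no combod18t cell kept a UMI, so that these values depend on the pseudocount. With a 2-fold rule, 2, 2, 1, 0, 0 and 1 members passed in T-like cells, in the order of the main ratios, 1, 2, 1, 1, 0 and 0 in NK-like cells, 1, 1, 3, 1, 0 and 0 in cluster 4, and 0, 1, 0, 2, 1 and 0 in cluster 5. Of all genes tested, 367, 377, 555, 1024, 116 and 589 of 11363 passed it in T-like cells. In NK-like cells 147, 174, 965, 1134, 30 and 404 of 9229 did. In cluster 4 it was 341, 580, 656, 1071, 157 and 350 of 9451. In cluster 5 it was 255, 428, 437, 799, 110 and 201 of 8425. Clusters given by number have no value at resolution 2 or without doublet removal, and NK-like cells, a single cluster, none for an equal mix. No replicate could be left out. No paired analysis was possible because each label has 1 library.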

Other observations

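Epithelial-like cells (cluster 18), which the CD45 sort should remove, held the highest Phlda3 of the named classes, at 107 CPM in CTX (137 UMIs, 58 cells), 96.5 in ctxd18t (230 UMIs, 131 cells) and 67.9 in combod18t (69 UMIs, 39 cells). MRX had 75.8 CPM from 11 cells, and Combined had 3 such cells. Cdkn1a in the same cells was 95.5 CPM in MRX, 153 in CTX, 314 in ctxd18t and 168 in combod18t, and their Ccng1, at 8.62 to 18.7 CPM, was the lowest of them. The dendritic cluster 13, led by Mgl2 and Cd209a and left unnamed as mixed, had Cdkn1a at 515 CPM in MRX, 907 in CTX and 971 in Combined, with 713 in ctxd18t and 485 in combod18t, and Bax at 158, 244, 277, 162 and 143 CPM.

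Over 26 points, each 1 class in 1 library with at least 100 cells, the mean z-score of 8 members was compared with 10512 other genes. The closest were Fam110a (Pearson r = 0.85), Furin (0.84), Tap2 (0.83), Rer1 (0.83) and Prelid3b (0.83). Among the members, Cdkn1a and Mdm2 were the closest pair (0.77), and Trp53inp1 did not follow the mean of the members (-0.03). Bax and Bbc3 were each the member closest to the other (0.52). Points share libraries and classes, so these values are a description.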
